A study of Mus musculus with 30 samples.

Results

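VDR-alone and RXR-alone regions are 400 bp intervals of the mouse genome whose exact coordinates were listed for one nuclear receptor, and for none of the other 8 profiled transcription factors, in 3T3-L1 cells 4 h after induction of fat-cell differentiation. A region was taken when its exact coordinates stood in 1 of 9 lists of binding sites and that list was the one for VDR, the vitamin D receptor, or for RXR, the retinoid X receptor. This gave 1639 VDR-alone and 1401 RXR-alone regions on chromosomes 1 to 19 and X. Together they were 3040 of 34724 listed regions (8.75%), and 20.2% of the 15048 regions listed for a single factor. Members were chosen by the listing itself, so the absence of other factors from these exact intervals is not a result. A shifted interval could still overlap them. An interval of any list, the own list included, did so for 55 VDR-alone and 56 RXR-alone regions. With any overlap with an interval of another list counted as sharing, 1585 VDR-alone and 1351 RXR-alone regions were left.

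3T3-L1 is a mouse fibroblast line that becomes fat-like when treated with hormones. All libraries used here came from cells that were past confluence and were harvested 4 h after an inducing mixture was added. It held insulin at 1 μg/mL, dexamethasone at 1 μM, the phosphodiesterase inhibitor 3-isobutyl-1-methylxantine at 0.5 mM, and serum (FCS) at 10%. The labels name no added ligand of VDR or RXR. Binding was mapped by chromatin immunoprecipitation with sequencing (ChIP-seq) of VDR, RXR, KLF5, KLF4, JunB, cJun, FOSL2, ATF2 and ATF7, with 1 library per factor. The RXR label does not say which RXR subtype was bound.

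VDR and RXR are nuclear receptors, proteins that bind DNA and change transcription when a small molecule binds them. VDR answers to the active form of vitamin D and classically binds DNA as a heterodimer with RXR, on a pair of hexamer half-sites in direct repeat. RXR is also the partner of many other receptors, among them PPARγ, the main regulator of fat-cell differentiation, and it can pair with itself.

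Each list gives the chromosome, start and end of 400 bp intervals in the mouse build mm9, with no score, read number or control. Because there was 1 library per factor and no replicate, no test between conditions was possible. Shares carry exact Clopper-Pearson 95% intervals, and differences of shares carry Newcombe 95% intervals. Both cover counting error alone, treat neighbouring regions as independent, and say nothing of variation between cultures or antibodies. The number of the 20 chromosomes that show a direction is given as a second measure of spread. No mm9 genome or annotation was used here, so the regions are given by position, without gene, exon or sequence.

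The VDR and RXR lists were of nearly equal length, 11794 and 12082 regions. VDR-alone regions made up 13.9% of the VDR list (95% exact interval 13.3 to 14.5) and RXR-alone regions 11.6% of the RXR list (11.0 to 12.2). Among the other 7 lists this share ran from 5.07% for KLF4 and 5.94% for cJun to 24.0% for KLF5 and 28.1% for ATF2, with JunB at 13.9%. Just outside the rule lay 1691 regions with VDR and exactly 1 other factor, and 1815 with RXR and exactly 1 other. The partner receptor was that other factor at 746 regions, 44.1% of those for VDR (41.7 to 46.5) and 41.1% of those for RXR (38.8 to 43.4). KLF5, a Krüppel-like zinc-finger factor with the longest list, came next, at 542 regions with VDR and 629 with RXR. JunB, an AP-1 subunit, was the single companion of VDR at 122 regions and of RXR at 188. FOSL2, another AP-1 subunit, was the rarest companion of both receptors, at 16 regions with VDR and 19 with RXR. Removing the KLF5 list would have turned 542 more regions into VDR-alone and 629 more into RXR-alone ones.

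Receptor-alone regions stood late in the lists, as did the single-list regions of each other factor. The rows did not follow the genome: a row lay on the same chromosome as the row before it in 5.84% of the VDR list and 5.37% of the RXR list, where thorough mixing would give 5.60% in both. Shared intervals came in the same order in 36 of 36 pairs of lists, and the sources used here do not say what the order stands for. A position was therefore counted as the share of the 7914 intervals listed for both receptors that came earlier, which is 1 scale for both lists. The median position was 93.3% for VDR-alone and 93.3% for RXR-alone regions, with quartiles of 75.3% and 98.8% for VDR-alone and 75.9% and 98.7% for RXR-alone. By row number within the own list the medians were lower, 83.9% for VDR-alone and 84.3% for RXR-alone regions. Cut into 4 equal parts, the order held 82, 87, 237 and 1233 VDR-alone regions and 35, 97, 202 and 1067 RXR-alone regions. The last part thus had 75.2% of the VDR-alone and 76.2% of the RXR-alone regions. All VDR sites were divided over the 4 parts as 18.8%, 19.7%, 23.4% and 38.0%, and all RXR sites as 18%, 20.0%, 23.6% and 38.4%. Hotspots, intervals listed for 5 or more of the 9 factors, had a median position of 38.0% in the VDR list and 39.2% in the RXR list. Position followed the number of factors step by step in both lists: the median was 85.8% for VDR sites with 1 other factor, 51.5% for those with 5 factors in all and 16.1% for those with all 9. For RXR it was 86.5%, 52.3% and 16.1%. Late standing was not particular to the receptors. In the last 10% of own rows, 73.7% of ATF2, 69.5% of KLF5, 58.5% of ATF7 and 58.0% of FOSL2 sites were listed alone. The share there was 52.6% for VDR, 52.5% for JunB, 45.0% for RXR, 37.1% for cJun and 26.7% for KLF4. In the first 10% of own rows it was at most 7.10%, for ATF2, in any of the 9 lists.

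**Figure D1:**
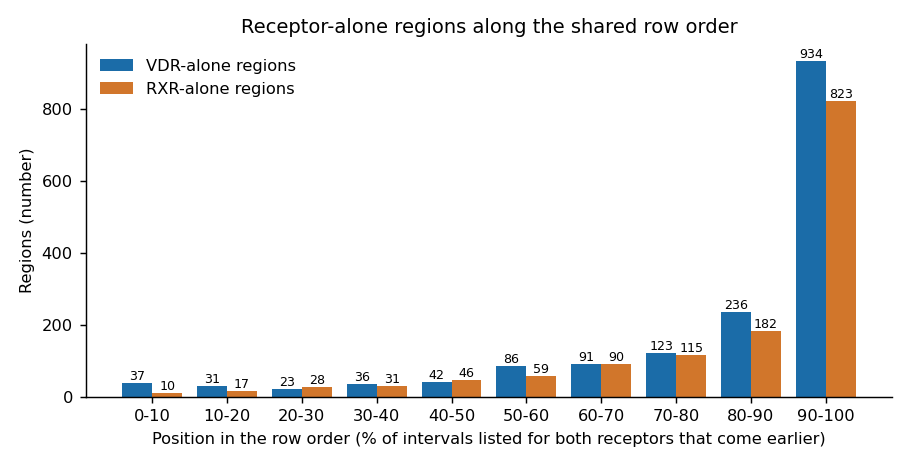
Number of VDR-alone (blue, left bars) and RXR-alone (orange, right bars) regions by position in the row order, the horizontal axis, counted as the percentage of intervals listed for both receptors that come earlier. The bin from 90 to 100% holds 934 VDR-alone and 823 RXR-alone regions, and the bin from 0 to 10% holds 37 VDR-alone and 10 RXR-alone regions.

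The lists differed in how many lone sites stood early. The first part of the order held 82 VDR-alone regions, 3.69% of the 2222 VDR sites there (95% exact interval 2.95 to 4.56), and 35 RXR-alone regions, 1.61% of 2170 RXR sites (1.13 to 2.24). The difference was 2.08 points (95% Newcombe interval 1.14 to 3.05). In the second part the shares were 3.74% of VDR sites and 4.01% of RXR sites (difference -0.278 points, -1.38 to 0.831), in the third 8.59% and 7.08% (1.51 points, 0.109 to 2.93), and in the last 27.5% and 23.0% (4.50 points, 2.72 to 6.28). The first 100 rows of the VDR list contained 12 VDR-alone regions, and the first 100 rows of the RXR list contained 1 RXR-alone region. Such early lone sites were not peculiar to VDR: ATF2 had 18 in its first 100 rows, KLF5 12, ATF7 12, FOSL2 5 and KLF4 2, while JunB and cJun had 0 each.

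The first 3 VDR-alone regions in the row order were rows 11, 12 and 17 of the list. They lay on chromosome 8 from 86090368 to 86090767, on chromosome 15 from 102156355 to 102156754 and on chromosome X from 7298865 to 7299264 (mm9). Their nearest hotspots were 171, 93.3 and 2088 kb away, and their nearest RXR sites 233, 74.8 and 309.7 kb away. The first 3 RXR-alone regions were rows 48, 165 and 303, on chromosome 6 from 59127970 to 59128369, on chromosome 9 from 121799207 to 121799606 and on chromosome 2 from 77831047 to 77831446. Their nearest hotspots were 30.5, 24.2 and 17.4 kb away, and their nearest VDR sites lay at most 13.5 kb away. All 3 early VDR-alone regions were thus farther from both than any of the 3 early RXR-alone regions.

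The next comparison asked how far receptor-alone regions lay from the 5623 hotspots. Distances were taken between midpoints. A hotspot lay within 10 kb of 259 VDR-alone regions, 15.8% (95% exact interval 14.1 to 17.7), and of 290 RXR-alone regions, 20.7% (18.6 to 22.9), where 18.1% of all 29101 intervals that were not hotspots had one. The difference was -4.90 points (95% Newcombe interval -7.67 to -2.15). VDR-alone regions had the lower share on 14 of 20 chromosomes, with a mean difference of -4.38 ± 7.43 points (SD over 20 chromosomes). The SD was wider than the difference. It includes counting error, since a chromosome held 46 to 138 VDR-alone and 35 to 114 RXR-alone regions, and the parts were not separated. By chromosome the difference ran from -20.4 points on chromosome 2 to 8.04 points on chromosome X. Leaving out each chromosome in turn gave -5.47 to -3.51 points. The median distance was 72.4 kb for VDR-alone regions (quartiles 20.9 and 224 kb) and 57.3 kb for RXR-alone regions (14.8 and 191 kb). At 1 kb the shares were 3.23% for VDR-alone and 3.85% for RXR-alone regions (background 3.63%; difference -0.621 points, -1.99 to 0.696), and at 100 kb 58.1% and 62.9% (background 59.7%; -4.80 points, -8.26 to -1.31). Beyond 1000 kb from any hotspot lay 87 VDR-alone (5.31%) and 57 RXR-alone regions (4.07%). Of the single-list regions of the other 7 factors, 4.57% lay that far, and their median distance was 73.0 kb.

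**Figure D2:**
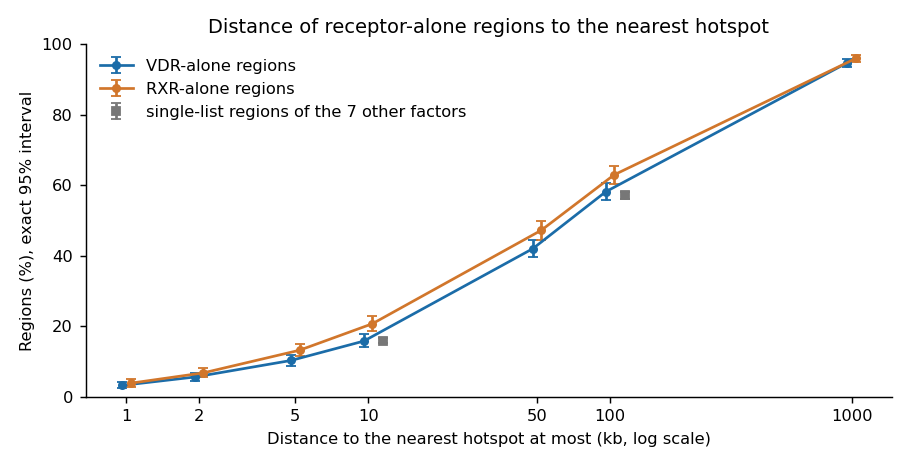
Share of VDR-alone (blue) and RXR-alone (orange) regions with a hotspot within the distance on the horizontal axis (kb, log scale), with exact 95% intervals; grey squares show the single-list regions of the 7 other factors at 10 and 100 kb. At 10 kb the share was 15.8% for VDR-alone and 20.7% for RXR-alone regions, and at 100 kb it was 58.1% and 62.9%.

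Set against the 12008 single-list regions of the other 7 factors, of which 15.9% had a hotspot within 10 kb, VDR-alone regions did not stand apart (difference -0.112 points, 95% Newcombe interval -1.92 to 1.84), and RXR-alone regions were higher by 4.79 points (2.64 to 7.08; higher on 17 of 20 chromosomes). RXR-alone regions were not told apart from KLF5-alone regions, of which 19.3% had a hotspot that near (difference 1.45 points, -0.939 to 3.94). They exceeded JunB-alone regions (12.3%) by 8.40 points (5.66 to 11.1), on 20 of 20 chromosomes. VDR-alone regions exceeded JunB-alone regions by 3.50 points (1.01 to 5.95) and were below KLF5-alone regions by a difference of -3.45 points (-5.54 to -1.26). Of the 746 regions with VDR and RXR and nothing else, 18.6% had a hotspot within 10 kb, a value between the VDR-alone and RXR-alone shares that was not told apart from either (VDR-alone difference -2.83 points, -6.23 to 0.383; RXR-alone difference 2.07 points, -1.52 to 5.50).

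The same direction between the receptors appeared at regions that the rule left out. Regions with VDR and 1 to 3 other factors but no RXR numbered 1899, and 17.7% of them had a hotspot within 10 kb. Of the 2213 regions with RXR and 1 to 3 others but no VDR, 24.9% had one. The difference was -7.15 points (95% Newcombe interval -9.63 to -4.65), and the share was lower with VDR on 18 of 20 chromosomes. Where KLF5 was the single companion, 19.9% of the VDR regions and 27.7% of the RXR regions had a hotspot that near (difference -7.74 points, -12.5 to -2.84). In the VDR list the share near another hotspot increased with the number of factors at the site, with 15.8% for VDR alone, 22.2% with 4 factors and 39.3% with all 9; in the RXR list it was 20.7%, 23.4% and 39.3%. VDR-alone and RXR-alone regions were the low end of both series.

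The distance to hotspots was then read along the row order. This split was chosen after the data were seen. In the first of the 4 parts, 8 of 82 VDR-alone regions (9.76%, 95% exact interval 4.31 to 18.3) and 11 of 35 RXR-alone regions (31.4%, 16.9 to 49.3) had a hotspot within 10 kb, a difference of -21.7 points (95% Newcombe interval -38.9 to -6.33). The median distance there was 153 kb for VDR-alone and 30.1 kb for RXR-alone regions. The 82 VDR-alone regions lay on 20 chromosomes and the 35 RXR-alone regions on 14. In the second part the medians were 133 kb for VDR-alone and 48.1 kb for RXR-alone regions, and the shares, 13.8% and 19.6%, differed by -5.79 points (-16.5 to 5.24). In the third part the medians were 58.9 kb for VDR-alone and 57.5 kb for RXR-alone regions, and in the last 67.3 and 59.3 kb. The shares of the third part, 19.4% for VDR-alone and 18.3% for RXR-alone, were not told apart (difference 1.09 points, -6.35 to 8.35), and those of the last part, 15.7% and 20.9%, differed by -5.25 points (-8.43 to -2.08). Within a receptor the first part was not told apart from the last: the difference was -5.90 points (-11.1 to 2.65) for VDR-alone and 10.5 points (-2.60 to 27.2) for RXR-alone regions.

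Of the 497 VDR sites in the first part of the order that were shared with 1 to 3 factors, 23.9% had a hotspot within 10 kb, with a median distance of 46.1 kb. For RXR the 480 such sites had 26.9% and 38.8 kb. The VDR-alone values there, 9.76% and 153 kb, were thus farther from those of their own list's shared sites than the RXR-alone values, 31.4% and 30.1 kb; this contrast was not tested. When each list was cut into 4 equal parts by its own rows, the first held 102 VDR-alone regions with a median of 139 kb and 67 RXR-alone regions with 46.1 kb. The first part of the other lists gave 98.8 kb for 240 ATF2-alone, 91.0 kb for 71 ATF7-alone, 76.9 kb for 248 KLF5-alone, 57.0 kb for 42 JunB-alone and 53.7 kb for 104 FOSL2-alone regions. The medians were 34.7 kb for the 12 KLF4-alone and 40.9 kb for the 2 cJun-alone regions of that part. The VDR median was thus the highest of the 9, and the RXR median lay above those of KLF4 and cJun; this order was not tested.

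**Figure D3:**
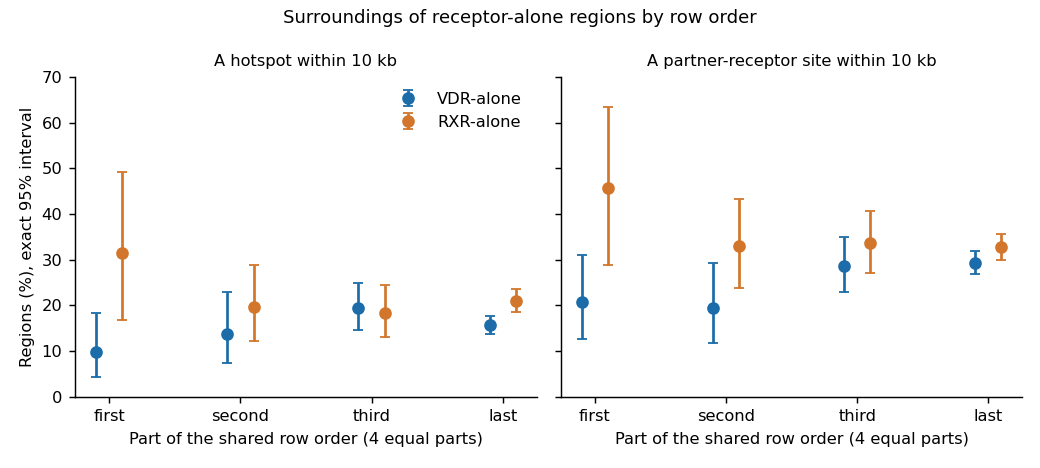
Share of VDR-alone (blue) and RXR-alone (orange) regions with a hotspot (left) or a site of the partner receptor (right) within 10 kb, in 4 equal parts of the shared row order, with exact 95% intervals. In the first part 9.76% of VDR-alone and 31.4% of RXR-alone regions had a hotspot that near; in the third the points nearly meet, at 19.4% and 18.3%.

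A receptor listed alone could still have had its partner next door. Midpoints of different intervals were at least 201 bp apart in these lists. An RXR site lay within 10 kb of 464 VDR-alone regions, 28.3% (95% exact interval 26.1 to 30.6), where 27.1% of all intervals not listed for RXR and 26.3% of the other factors' single-list regions had one. A VDR site lay within 10 kb of 465 RXR-alone regions, 33.2% (30.7 to 35.7), where 27.8% of all intervals not listed for VDR and 25.8% of the other factors' single-list regions had one. The VDR-alone share was thus near its background, and the RXR-alone share was above it. The difference between the receptors was -4.88 points (95% Newcombe interval -8.17 to -1.59), with the lower value for VDR-alone regions on 14 of 20 chromosomes and a spread of 7.36 points (SD over 20 chromosomes). By chromosome the difference ran from -18.7 points on chromosome 15 to 10.7 points on chromosome X. The median distance to the partner was 29.5 kb for VDR-alone and 23.2 kb for RXR-alone regions. Sites of the own list were somewhat nearer: 31.4% of VDR-alone regions had another VDR site within 10 kb (median 25.9 kb) and 37.3% of RXR-alone regions another RXR site (median 19.2 kb).

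Very near partners were few. An RXR site lay within 1 kb of 5.67% of VDR-alone regions, where the background was 5.52%, and a VDR site within 1 kb of 7.64% of RXR-alone regions, where it was 5.59%. The 400 bp interval of a VDR-alone region overlapped an interval listed for RXR in 23 cases, and that of an RXR-alone region one listed for VDR in 23 cases. Of the 12008 single-list regions of the other factors, 151 overlapped an interval listed for RXR and 148 one listed for VDR. A VDR-alone and an RXR-alone region overlapped once. That pair lay on chromosome 3, from 126151197 to 126151596 for VDR and from 126151479 to 126151878 for RXR, with midpoints 282 bp apart. The next pairs were 596 bp apart on chromosome 6 (VDR from 115313607 to 115314006, RXR from 115314203 to 115314602) and 603 bp apart on chromosome 5 (VDR from 106099028 to 106099427, RXR from 106098425 to 106098824). In all, 6 VDR-alone regions had an RXR-alone region within 1 kb and 56 (3.42%) had one within 10 kb.

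Partner sites were also read along the row order. In the first part, 17 of 82 VDR-alone regions (20.7%, 95% exact interval 12.6 to 31.1) had an RXR site within 10 kb, and 16 of 35 RXR-alone regions (45.7%, 28.8 to 63.4) had a VDR site that near, a difference of -25.0 points (95% Newcombe interval -42.7 to -6.76). The shares were 19.5% for VDR-alone and 33.0% for RXR-alone regions in the second part (-13.4 points, -25.5 to -0.635), 28.7% and 33.7% in the third (-4.97 points, -13.6 to 3.67), and 29.4% and 32.7% in the last (-3.35 points, -7.14 to 0.436). Of the 5623 hotspots 4710 were listed for VDR and 4922 for RXR, so the measures overlap. The direction in the first part was not particular to partner sites. Sites of each of the other 7 factors were also less often within 10 kb of VDR-alone regions there. The shares ran from 25.6% for VDR-alone and 31.4% for RXR-alone regions with ATF2 to 22.0% and 51.4% with KLF5. Any listed interval lay that near at 45.1% of VDR-alone and 68.6% of RXR-alone regions. These contrasts were not tested.

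Within 10 kb, sites of 5 of the other 7 factors were listed less often around VDR-alone than around RXR-alone regions, with intervals of the difference below 0. JunB differed most, with a site within 10 kb of 23.5% of VDR-alone and 30.3% of RXR-alone regions (difference -6.85 points, 95% Newcombe interval -10.0 to -3.68), where 26.5% of all intervals not listed for JunB had one. KLF5 lay within 10 kb of 34.4% of VDR-alone and 39.1% of RXR-alone regions (-4.70 points, -8.14 to -1.27; background 34.8%). ATF2, a bZIP factor, was that near at 22.7% and 26.5% (-3.78 points, -6.86 to -0.718; background 28.0%), cJun at 16.9% and 20.3% (-3.37 points, -6.16 to -0.602; background 17.8%) and ATF7 at 15.7% and 18.6% (-2.82 points, -5.52 to -0.135; background 21.0%). For KLF4 the shares were 16.2% and 18.4% (-2.25 points, -4.96 to 0.443; background 18.2%) and for FOSL2 13.5% and 15.6% (-2.15 points, -4.69 to 0.360; background 18.7%), so their intervals included 0. At 10 kb the share was lower for VDR-alone regions on 12 to 15 of 20 chromosomes, depending on the factor. Within 1 kb the interval was below 0 for KLF5 alone among the 7, at 7.26% of VDR-alone and 9.42% of RXR-alone regions (-2.16 points, -4.17 to -0.196). The shares within 1 kb were nearly equal for ATF2 (4.88% and 4.85%), ATF7 (2.87% and 2.78%) and FOSL2 (2.93% and 2.86%). Within 10 kb, the exact intervals of FOSL2 and ATF7 lay below their background around both classes. Around VDR-alone regions those of ATF2 (95% exact interval 20.7 to 24.8), JunB and KLF4 did so too. The ATF2 interval for RXR-alone regions, 24.2 to 28.9, included its background, as did that of KLF4. Around RXR-alone regions the exact intervals lay above the background for VDR, RXR, KLF5, JunB and cJun sites, and around VDR-alone regions for VDR sites (29.2 to 33.7, background 27.8%). The background for sites of the own list is taken over intervals that the list does not hold. Among intervals that the RXR list does hold, another RXR site lay within 10 kb of 37.3% of RXR-alone regions, 34.9% of regions with VDR and RXR and nothing else, and 42.5% of those with RXR and 1 to 3 others but no VDR.

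**Figure D4:**
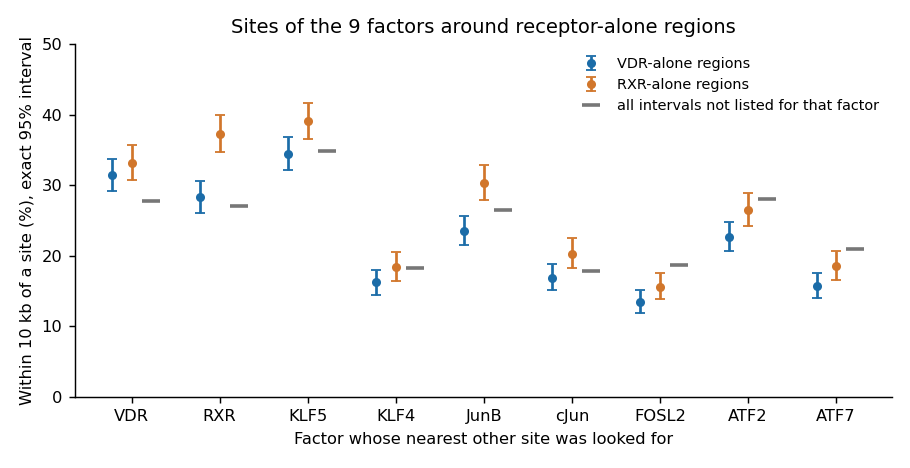
Share of VDR-alone (blue) and RXR-alone (orange) regions with another site of the named factor within 10 kb, with exact 95% intervals; grey bars mark the share over all intervals not listed for that factor. The orange point is above the blue one for each of the 9 factors, and for FOSL2, ATF2 and ATF7 both points lie below the grey bar.

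Isolation was the next measure. No other listed interval of any factor lay within 10 kb of 788 VDR-alone regions, 48.1% (95% exact interval 45.6 to 50.5), and of 603 RXR-alone regions, 43.0% (40.4 to 45.7). Seen the other way, 51.9% of VDR-alone and 57.0% of RXR-alone regions had a neighbour within 10 kb, where 60.6% of all intervals and 58.3% of the other single-list regions had one. The difference was -5.04 points (95% Newcombe interval -8.57 to -1.49), but the share was lower for VDR-alone regions on no more than 11 of 20 chromosomes. VDR-alone regions differed from those other single-list regions by -6.35 points (95% Newcombe interval -8.92 to -3.78; lower on 16 of 20 chromosomes), and RXR-alone regions by -1.31 points (-4.06 to 1.41). Those other classes varied, with 46.9% for cJun-alone, 47.6% for JunB-alone, 61.6% for KLF5-alone and 63.4% for FOSL2-alone regions. Against JunB-alone regions a neighbour was more frequent for both receptors, by 4.35 points for VDR-alone (0.786 to 7.91; higher on 15 of 20 chromosomes) and by 9.39 points for RXR-alone regions (5.69 to 13.1; 19 of 20). The nearest listed interval was a hotspot for 16.7% of VDR-alone regions (14.9 to 18.6) and 19.6% of RXR-alone regions (17.6 to 21.8), where 16.2% of all intervals were hotspots. It was listed for KLF5 in 49.1% of cases for VDR-alone and 52.5% for RXR-alone, where 49.3% of all intervals were.

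The extremes show the range. The VDR-alone regions farthest from any hotspot lay on chromosome X from 39348925 to 39349324 (5694 kb away), on chromosome X from 39237886 to 39238285 (5583 kb) and on chromosome 17 from 94406719 to 94407118 (5379 kb). The farthest RXR-alone regions lay on chromosome X from 91002572 to 91002971 (6880 kb), on chromosome 4 from 25028702 to 25029101 (5373 kb) and on chromosome X from 45117606 to 45118005 (5207 kb). The last of these had a VDR site 1.26 kb away, so distance from hotspots did not always mean distance from the partner. At the other end, the VDR-alone regions nearest to a hotspot were 0.286, 0.309 and 0.319 kb from one, on chromosome 12 from 82224489 to 82224888, on chromosome 4 from 150080969 to 150081368 and on chromosome X from 166383643 to 166384042. The nearest RXR-alone regions were 0.280, 0.301 and 0.303 kb from one, on chromosome 5 from 32732521 to 32732920, on chromosome 2 from 139554086 to 139554485 and on chromosome 3 from 143919043 to 143919442. These 6 intervals overlapped a hotspot interval, and RXR or VDR, as the partner, was listed at that hotspot in 5 of the 6; the RXR-alone region on chromosome 3 had its nearest VDR site 45.9 kb away.

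Both classes were found on all 20 chromosomes. VDR-alone regions had the larger share of their class on 10 of 20 chromosomes. As a share of the own list, VDR-alone regions were above RXR-alone regions on 19 of 20 chromosomes, all but chromosome 16 (12.3% for VDR-alone and 13.2% for RXR-alone), and the exact intervals overlapped on each of the 20. Chromosome 19 had the lowest share of both, 9.84% of the VDR list and 6.27% of the RXR list. Chromosome X had the highest, with 56 of 247 VDR sites alone, 22.7% (95% exact interval 17.6 to 28.4), and 48 of 237 RXR sites alone, 20.3% (15.3 to 25.9).

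**Figure D5:**
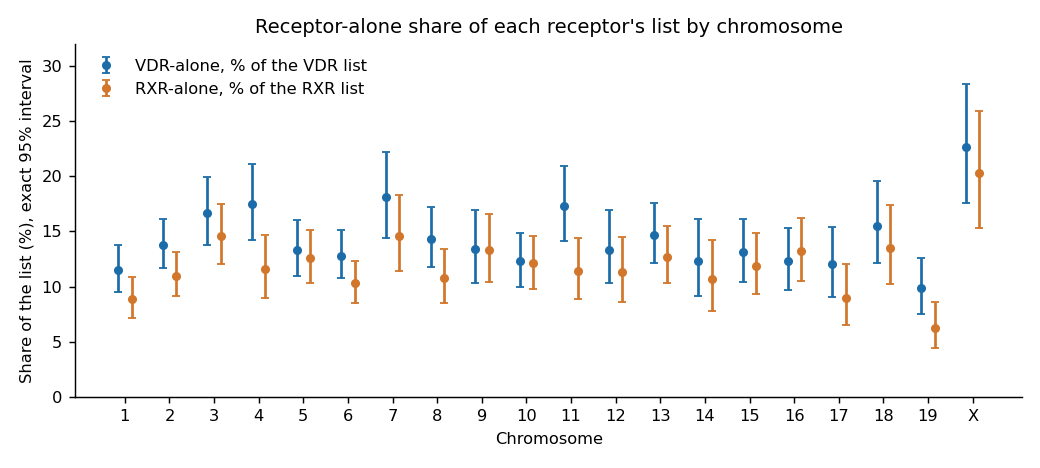
Share of the VDR list that was VDR-alone (blue) and of the RXR list that was RXR-alone (orange) on each chromosome, with exact 95% intervals. Chromosome X is highest for both, at 22.7% for VDR and 20.3% for RXR, and chromosome 19 lowest, at 9.84% and 6.27%.

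Against the autosomes, where 13.7% of the VDR list and 11.4% of the RXR list was alone, chromosome X was higher by 8.96 points for VDR (95% Newcombe interval 4.14 to 14.6) and by 8.83 points for RXR (4.17 to 14.4). This was not particular to the receptors. Of all intervals on chromosome X, 51.2% were listed for a single factor, against 43.2% on the autosomes (8.01 points, 4.20 to 11.8), and 7.46% were hotspots, against 16.4% (-8.90 points, -10.7 to -6.63). The share that was alone was higher on chromosome X for ATF2 (40.9%, against 28.0% on autosomes), FOSL2 (43.8%, against 20.2%), JunB (22.7%, against 13.7%), KLF5 (30.6%, against 23.9%) and cJun (12.2%, against 5.84%), with intervals of the difference above 0. For ATF7 (8.70 points, -0.143 to 19.9) and KLF4 (3.02 points, -1.12 to 10.7) the interval included 0. Chromosome X held 3.42% of VDR-alone regions (95% exact interval 2.59 to 4.41). It held 3 of the 504 VDR sites with all 9 factors (0.595%, 0.123 to 1.73), and 247 of the 11794 sites of the whole VDR list.

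Groups of receptor-alone regions were small. Joined within 10 kb, 82 VDR-alone regions fell into 40 groups and 77 RXR-alone regions into 37. With both classes joined together, 264 of the 3040 regions (8.68%) fell into 128 groups. No group held more than 3. The nearest listed interval was another VDR-alone region for 6.71% of VDR-alone regions (95% exact interval 5.55 to 8.03), where 4.72% of all intervals were VDR-alone. It was another RXR-alone region for 6.35% of RXR-alone regions (5.13 to 7.76), where 4.03% of all intervals were RXR-alone. The groups of 3 VDR-alone regions ran on chromosome X from 159990872 to 159998914 and on chromosome 2 from 60062160 to 60071206. Those of 3 RXR-alone regions ran on chromosome 17 from 32161646 to 32177127, on chromosome 7 from 97186276 to 97194363 and on chromosome 15 from 77026517 to 77033070. The third VDR-alone group by the same ranking held 2 regions, on chromosome 17 from 46919396 to 46920388. Bins of 1 Mb with 100 or more listed intervals occurred on chromosome 10 alone, where 3 bins held 867 intervals. They held 18 VDR-alone (1.10%) and 7 RXR-alone regions (0.500%), against 1.80% of the whole VDR list, 1.47% of the whole RXR list, 2.50% of all intervals and 2.45% of hotspots.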

How the data were processed

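The authors deposited 1 list of 400 bp intervals per factor, with chromosome, start and end in mm9 as the only columns. FastQC, Bowtie and HOMER are named in the submitters' processing notes, without role or version; the sources used here do not give the peak threshold, the control or how the common intervals were made, and library depth is unknown. Of 30 labelled samples, 9 were used and 21 were not analysed here. Intervals on chromosome Y (2) were left out, and identical coordinates counted as the same region. Starts are printed 1-based.

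Members, groups and tests were chosen with earlier results of these data known. Named regions were, for each receptor, the first 3 in row order, the 3 farthest from and nearest to a hotspot, the 3 closest pairs of both classes and the 3 largest groups. Python 3.11.15, numpy 2.4.6, scipy 1.17.1, pandas 2.3.3 and matplotlib 3.10.9 were used, and the functions were tested on simulated lists. Alternatives covered sharing, lists left out, hotspot definition, distance, partner sites, row order, list length and chromosomes.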

Additional observations from a re-analysis of the deposited data

How the results depend on the processing

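The numbers of VDR-alone and RXR-alone regions stayed within 1.5 times of the reported ones under 10 alternatives each (1423 to 2181 and 1180 to 2030), the highest without the KLF5 list. Most alternatives for hotspots and for partner sites left out 1 chromosome or 1 list, so they shared most of their regions. The difference in hotspots within 10 kb was below 0 in 38 of 39 alternatives. It was -1.17 points at 2 kb, with an interval that included 0, -21.7 points in the first of 4 parts of the order, and of opposite sign, 1.09 points, in the third; the cause was not tested. With hotspots defined by 6 or more lists the difference was -3.21 points, and by 4 or more -4.40. The difference of the median distances, 15.1 kb as reported, was 6.20 kb with 4 or more lists (43.6 kb for VDR-alone, 37.4 kb for RXR-alone), 21.7 kb with 6 or more and 12.2 kb with 4 or more of the 7 other lists. The difference in partner sites within 10 kb was below 0 in 39 of 39 alternatives. It was -0.438 points (-1.82 to 0.895) when only partner-alone sites counted, which are few, -25.0 points in the first part and -13.4 points in the second. In the third and last parts its interval included 0. In the first part, leaving out each chromosome in turn gave -26.3 to -17.1 points for hotspots and -35.3 to -20.9 points for partner sites, and at 5 kb the hotspot difference was -8.19 points, with an interval that included 0. With the first part cut by each list's own rows, the differences were smaller. They were -15.6 points (-27.9 to -4.06) for hotspots and -18.7 points (-32.5 to -4.63) for partner sites. VDR-alone regions were ahead on 10 of 20 chromosomes by share of their class, but on 19 per interval of the own list and 18 per common interval, since VDR-alone regions are more numerous. Without each other list in turn, the excess of lone sites on chromosome X was 8.82 to 10.1 points for VDR and 8.46 to 10.7 for RXR. The splits by row order and the chromosome X values were chosen after seeing the data. A position within the chromosome was not computed, because rows are not grouped by chromosome. No paired analysis was possible because each factor had 1 library. Depth and the threshold of each list are unknown, so a region absent from a list cannot be called unbound.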
